A study of Mus musculus with 8 samples.

Results

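The comparison set p75NTR-positive mouse liver cells of E14.5 fetuses (days of gestation) against the same kind of cells of E13.5 fetuses, 1 day younger. It used 2 of the 8 arrays of the study, 1 array a side, and a gene entered where its probe was called well above background by the scanner software on the brighter of both arrays. Of 20058 genes that could be named, 14443 entered: 13480 were above background on both arrays, 436 on the E14.5 array only and 527 on the E13.5 array only. Both groups were fetal livers freed with collagenase and sorted by flow cytometry for p75NTR, with CD45-positive and Ter119-positive blood cells gated out. The strain, the sex and whether fetuses were pooled are not given in the sources used here. Further arrays of the study held p75NTR-positive cells at E11.5, E17.5 and postnatal day 1 (P1), adult hepatic stellate cells sorted by vitamin A, cultured embryonic skin fibroblasts (MEF) and adult mesenchymal stem cells (MSC). With 1 array a side there is no replicate and no test, so every difference below is between those 2 arrays.

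p75NTR is the low-affinity neurotrophin receptor, encoded by Ngfr, and in the liver it marks mesenchymal cells, above all hepatic stellate cells and their precursors. Stellate cells lie between hepatocytes and the sinusoidal vessels, store vitamin A as retinyl esters and turn into matrix-producing myofibroblasts after injury. In the fetus they come from mesenchyme of the septum transversum and from the mesothelium, the epithelial sheet over the liver surface. At this age the liver is the main site of blood formation, and hepatoblasts, the common precursors of hepatocytes and bile duct cells, are beginning to make plasma proteins.

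Levels are log2 signals relative to the 75th percentile of their array, so that 1 unit is a 2-fold change and a level of 0 is the 75th percentile. The sorted marker itself was well above background on both arrays: Ngfr stood at 3.24 at E13.5 and at 4.75 at E14.5, with a scanner error of 0.06 on the difference. Ptprc, which encodes CD45, was not well above background on either array, at -6.81 and -6.31. The stellate markers Lhx2, Hand2, Colec10, Colec11 and Angptl6 were above background on both arrays, while Gfap, an adult stellate marker, was on neither.

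Both arrays lay on the same slide and had nearly equal shares of spots above background, 62.0% at E13.5 and 61.3% at E14.5, and no saturated spot. Replicate spots of a probe varied by a median SD of 0.0702 and 0.0714 log2 units, an error of the array surface and not of animals. Raw signals were lower at E14.5 (75th percentile 249, against 370 at E13.5). The 8 spike-in probes above background, RNA added in fixed amounts at labelling, lay 1.01 higher at E14.5 on the scaled values (0.598 to 1.12). Scaled to the spike-ins instead, every difference would therefore be 1.01 lower, and the median over all genes would move from -0.05 to -1.07. All differences below are relative to the 75th percentile, and one between 0 and 1.01 would have the opposite sign against the spike-ins.

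More genes were higher at E14.5 than lower. At least 2-fold higher were 1360 genes (9.42% of those compared), and at least 2-fold lower were 922 (6.38%). At 4-fold the counts were 530 higher (3.67%) and 210 lower (1.45%), or 5.12% either way. Among genes above background on both arrays, 1034 were at least 2-fold higher (7.67%) and 607 lower (4.5%), and these shares are the background for every gene list below. At 4-fold these genes gave 351 higher (2.6%) and 66 lower (0.49%), 3.09% in all. Of all 2-fold calls, 59.6% were higher; the share was 82.0% with another background correction (normexp), which left 655 higher and 144 lower, and 6.10% when scaled to the spike-ins. Over the 13480 genes the levels correlated at r = 0.97 across genes, which are not independent replicates, and the median scanner error of a difference was 0.20.

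**Figure D1:**
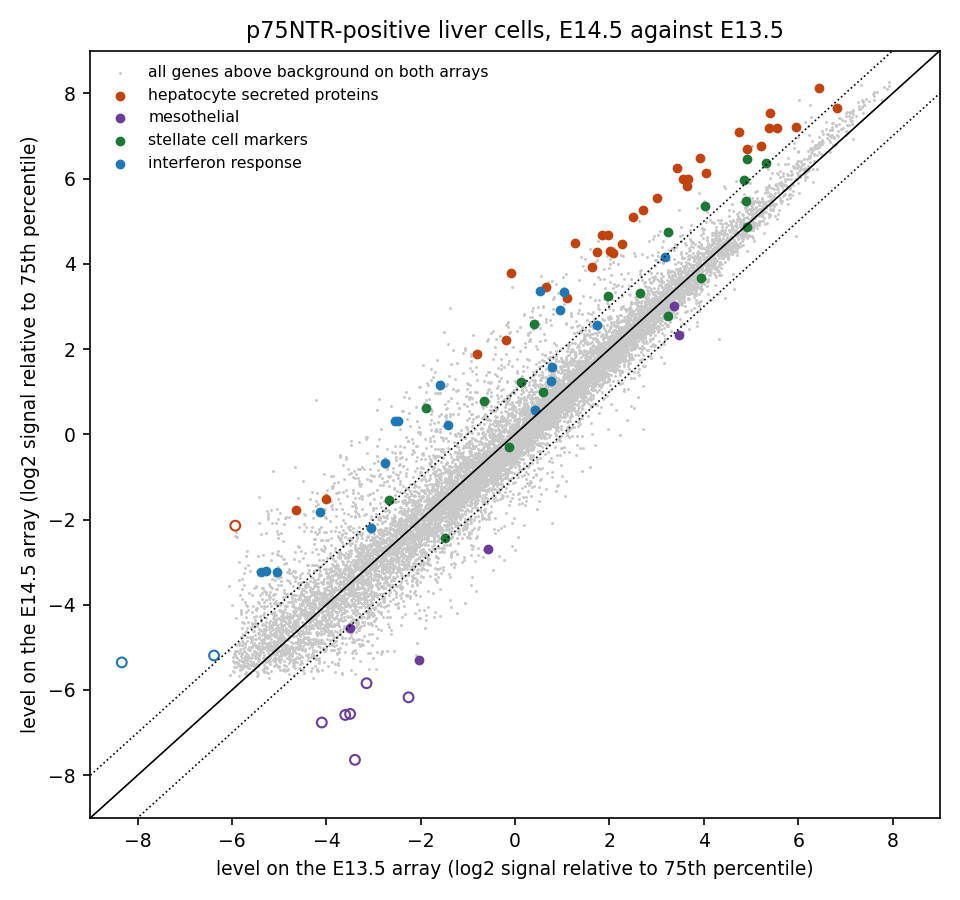
Level of each gene on the E13.5 array (x axis) and the E14.5 array (y axis), in log2 signal relative to the 75th percentile; open circles are list members above background on 1 of the 2 arrays, the solid line marks equal levels and the dotted lines a 2-fold difference. Hepatocyte secreted proteins (32 of 33 members above background on both) and interferon response genes (12 of 18) lie beyond the upper dotted line, and 4 of 5 mesothelial genes beyond the lower one.

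Among genes above background on both arrays, the 15 highest and 15 lowest are named. The highest were Hbb-y (an embryonic beta-type globin), Car3 (a carbonic anhydrase), Steap4 (a metalloreductase), Psmb8 (an immunoproteasome subunit) and Apoc4 (an apolipoprotein), at differences of 5.03, 4.35, 4.28, 3.96 and 3.91. The next were Fbp1, Itih4, Tff3, Rdh7, Haao, Hp, Clec2d, Cyp2d26, Leap2 and Hao2, between 3.89 and 3.48; Fbp1 makes glucose in hepatocytes, Hp is haptoglobin and Leap2 a liver peptide hormone. The lowest were Upk3b and Krt7, genes of surface epithelia, at -3.27 and -3.08, then Stra6 and Aldh1a2, genes of retinoic acid supply, at -2.96 and -2.90. After them came Myl7, Oprl1, Fgf9, Tmem26, Nxph3, Pnoc, Ctla2b, Hoxc5, Prss12, Grin2c and Asic4, between -2.86 and -2.58. Hamp, the iron hormone hepcidin, was above background at E14.5 only and at least 28.9-fold higher. Such a bound divides the bright side by the lowest signal well above background on the dim array, or by the dim probe's own signal where that is higher.

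**Figure D2:**
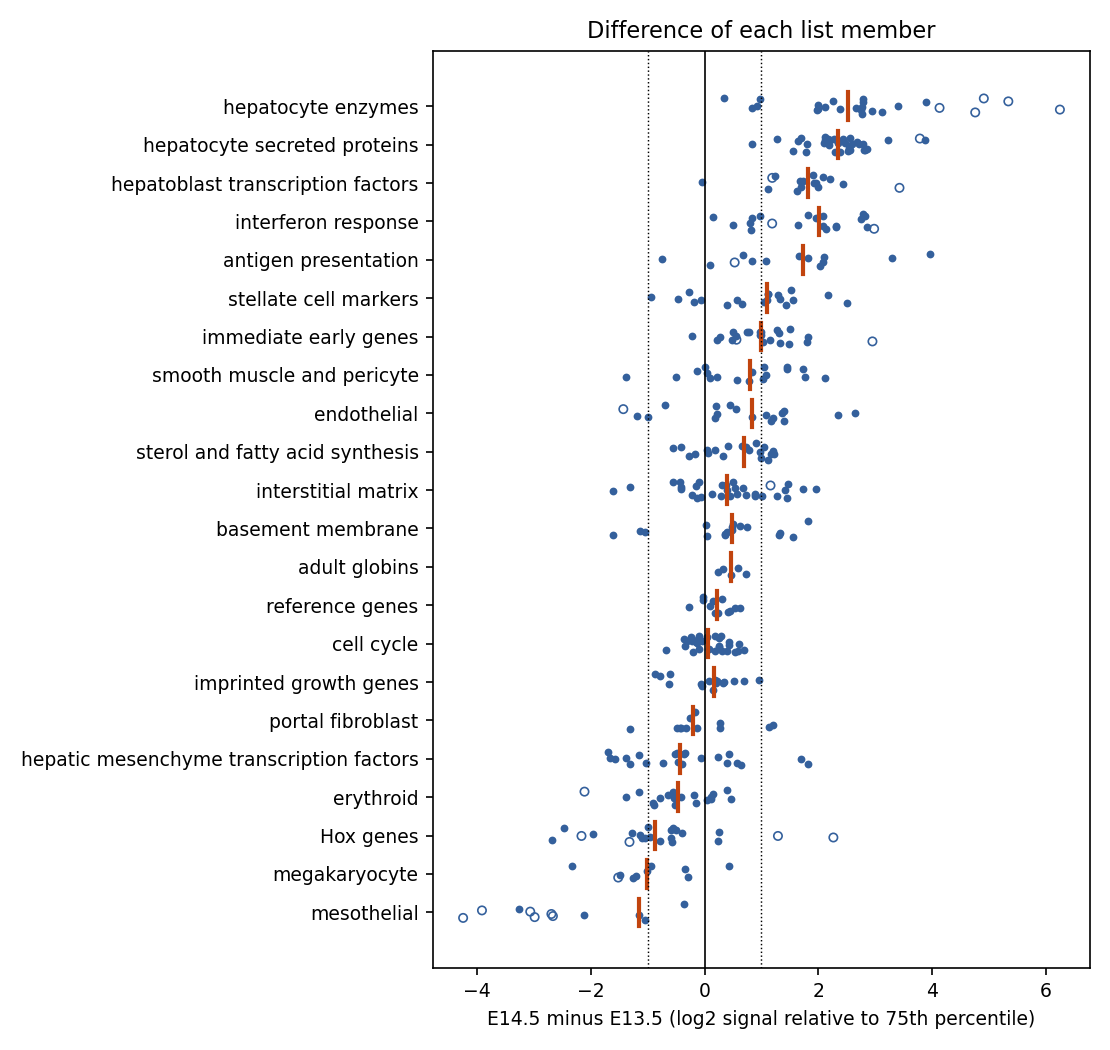
Difference E14.5 minus E13.5 (x axis, log2 signal relative to the 75th percentile) of each compared member of 22 gene lists; filled points are genes above background on both arrays, open points on 1 array only, and the bar is the median of the filled points. The hepatocyte and interferon lists lie to the right with medians of 1.82 to 2.53, cell cycle genes centre on 0.05, and mesothelial genes lie to the left at -1.15; against the spike-ins all points shift left by 1.01, which turns the medians between 0 and 1.01 negative.

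Stellate cell markers were on balance higher at E14.5. Of 20 listed, 19 were above background on both arrays, 11 of these were at least 2-fold higher and none was at least 2-fold lower, with a median of 1.104 (0.091 scaled to the spike-ins). Lrat, the enzyme that esterifies retinol for storage, stood at -1.89 at E13.5 and at 0.61 at E14.5, 5.65-fold higher. Vipr1, a receptor for vasoactive intestinal peptide, stood at 0.41 and 2.58, and a dimmer probe of the gene gave a smaller difference of 0.86. Both genes were higher again on the E17.5 array, at 2.16 and 4.50.

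Ngfr was 2.85-fold higher, but its level at E11.5 was 4.97, above that at E14.5. Angptl6, an angiopoietin-like secreted protein, went from 4.91 to 6.46, and Reln, the guidance glycoprotein reelin, from -0.66 to 0.78. Not every marker took part. Des, the muscle-type intermediate filament desmin, stood at -0.13 and -0.31, and Tcf21, a transcription factor of visceral mesenchyme, at 0.60 and 1.0. Col1a1, the main fibrillar collagen chain, stood at 4.26 and 4.79. These 3 genes differed by less than 2-fold, and the differences of Tcf21 and Col1a1 would be negative against the spike-ins.

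**Figure D3:**
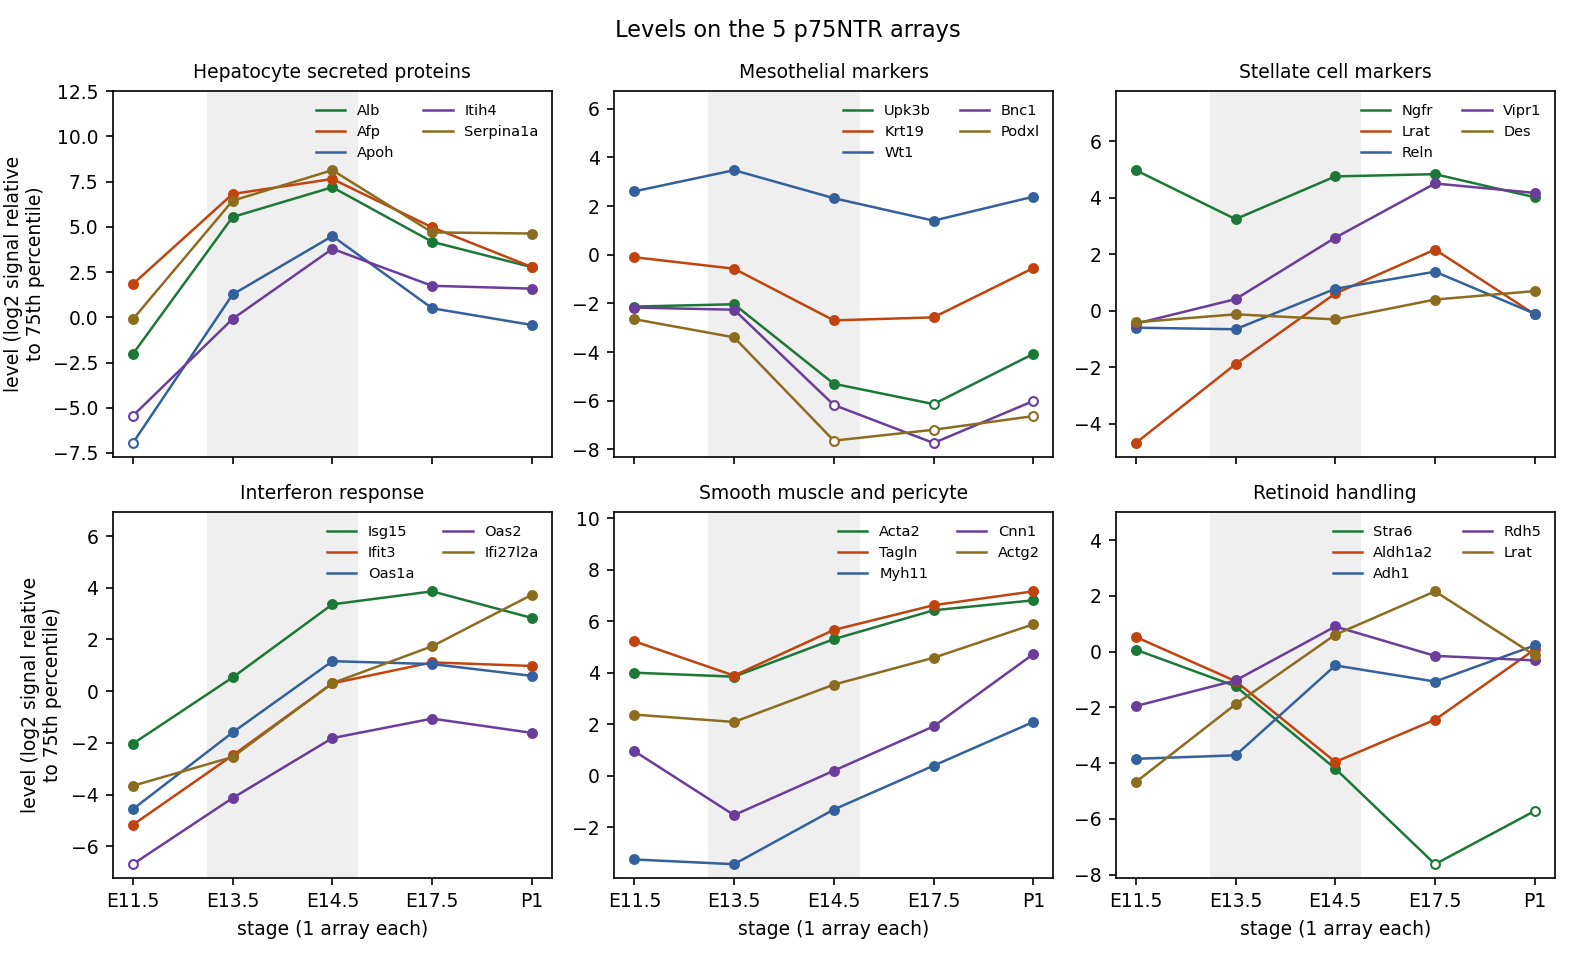
Levels (y axis, log2 signal relative to the 75th percentile) of 5 genes from each of 6 lists on the 5 p75NTR arrays (x axis, 1 array each, filled where above background); the grey band marks E13.5 and E14.5, and P1 lies on another slide. Alb goes from 5.55 to 7.19 within the band and stands at 4.18 on the E17.5 array, Upk3b goes from -2.03 to -5.30, and Isg15 from 0.53 to 3.36.

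Genes of retinoid handling moved in both directions. Of 22 above background on both arrays, 7 were at least 2-fold higher and 3 at least 2-fold lower, with a median of 0.49 (-0.52 scaled to the spike-ins). On the storage and oxidation side, Adh1, an alcohol dehydrogenase that oxidises retinol, went from -3.72 to -0.49, 9.35-fold higher. Rdh5, a retinol dehydrogenase, went from -1.03 to 0.90. The 3 lower genes were Stra6, the cell-surface receptor that takes retinol up from its carrier, at -1.24 and -4.20, Aldh1a2, the main embryonic enzyme making retinoic acid, at -1.06 and -3.96, and Crabp1, a retinoic acid carrier, at 1.41 and -0.05. Stra6 was not above background on the E17.5 and P1 arrays, whereas Aldh1a2 returned to 0.08 at P1. Crabp1 and Aldh1a3 were chosen after their values were seen. Aldh1a3, another retinoic acid-making enzyme, was higher, at -2.45 and -0.71.

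Mesothelial genes were lower at E14.5. Of 11 compared, 5 were above background on both arrays, and 4 of these were at least 2-fold lower (median -1.15). Upk3b, a uroplakin of the mesothelial surface, stood at -2.03 and -5.30, 9.63-fold lower. Krt19, a keratin of simple epithelia, stood at -0.57 and -2.70, and Wt1, a transcription factor of mesothelium and its mesenchymal offspring, at 3.48 and 2.32. Wt1 thus stayed far above background at E14.5, and the difference of Alcam, an adhesion molecule, was -0.36.

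The other 6 mesothelial genes were above background at E13.5 only, so by the filter they could only be lower. Bnc1, the transcription factor basonuclin, was at least 11.1-fold lower, Gpm6a, a membrane glycoprotein, at least 6.0-fold, and Podxl, podocalyxin, at least 5.06-fold. Lrrn4, Upk1b and Msln (mesothelin) were at least 4.71-fold, 4.39-fold and 3.11-fold lower. Summed over the list, the signal was 23.1 times the 75th percentile at E13.5 and 13.3 times at E14.5, against 14.03 at E11.5 and 8.55 at E17.5. The sum is of unlogged signals, in which bright members such as Wt1 outweigh dim ones such as Upk3b. Over all members compared the median difference was -2.69, and with normexp it was -0.31. In sorted bulk RNA fewer cells of a type and less RNA per cell cannot be told apart.

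Hepatocyte transcripts were present on both arrays although the sort was for mesenchyme, and they were much higher at E14.5. Of 33 secreted proteins above background on both arrays, 32 were at least 2-fold higher, with a median of 2.35; the exception was Afp, alpha-fetoprotein, the fetal counterpart of albumin, at 6.82 and 7.65. Alb, albumin, stood at 5.55 and 7.19, 3.13-fold higher. Apoh, a phospholipid-binding plasma protein, went from 1.26 to 4.49, and Itih3 and Itih4, inter-alpha-trypsin inhibitor chains, from 1.84 to 4.67 and from -0.09 to 3.79. Mbl2, a complement lectin, was at least 13.8-fold higher. Summed over the list, the signal was 14.4 times the 75th percentile at E11.5, 622 at E13.5, 2209 at E14.5, 200.5 at E17.5 and 127 at P1. E14.5 was the highest of the 5 p75NTR arrays for 34 of 35 members.

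Intracellular hepatocyte genes went the same way. Of 20 metabolic enzymes and transporters above background on both arrays, 16 were at least 2-fold higher and none lower (median 2.53). A further 5 were above background at E14.5 only, so by the filter they could only be higher. Akr1c6, Cyp3a16, Cyp3a11, Sult2a1 and Slco1b2, steroid- and drug-handling genes, were at least 17.54-fold, 15.4-fold, 9.86-fold, 9.11-fold and 7.0-fold higher. The Cyp3a genes are close paralogs whose probes may share signal. Of 14 hepatoblast transcription factors above background on both arrays, 13 were at least 2-fold higher (median 1.82). Hnf4a, the central hepatocyte regulator, went from 1.05 to 3.05, Creb3l3 from 0.31 to 2.74, Foxa3 from -2.76 to -0.55 and Cebpa from -2.36 to -0.29. Onecut1 was at least 3.45-fold higher, and Tbx3, at 0.16 and 0.11, was the factor that differed least. What part hepatocyte RNA has in the other differences of this comparison was not tested.

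Genes of the biliary and surface epithelia did not form a single group. Krt8, Krt18 and Cdh1 (E-cadherin), which hepatoblasts also express, were higher by 1.28, 1.40 and 2.11. Krt7, Krt19 and Sox9 were lower, at differences of -3.08, -2.12 and -1.71. Cldn7, a tight junction protein, stood at -2.41 and -1.99.

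The promoter of Afp, the secreted protein that did not reach 2-fold, is shown as an example of a window that holds the letters of a binding motif of the hepatocyte factor HNF1. The window holds the 250 bases before the RefSeq start (GRCm38.p6, chr5:90490464-90490713, plus strand), and the capitals mark the letters GTTAAT, any 1 base and ATT, searched on both strands, 105 bases before the start.
Afp: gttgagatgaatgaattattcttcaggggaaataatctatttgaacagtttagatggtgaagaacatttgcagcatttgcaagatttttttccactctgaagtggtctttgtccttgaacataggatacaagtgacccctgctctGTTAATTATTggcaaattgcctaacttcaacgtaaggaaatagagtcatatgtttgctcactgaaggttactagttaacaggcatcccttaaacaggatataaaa
The letters occurred in 2 of 30 windows of hepatocyte secreted proteins (6.67%, in Afp and Gc), in 0 of 20 of hepatocyte enzymes, in 1 of 19 of hepatoblast factors and in 122 of 32851 windows of all genes (0.371%). A match is a description of the sequence and not evidence of binding.

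Interferon response genes were mostly higher at E14.5. These genes are switched on when interferon receptors are engaged, in part through Stat2 and Irf9, and their products restrict viruses. Of 18 above background on both arrays, 12 were at least 2-fold higher and none lower (median 2.02). Isg15, a ubiquitin-like protein, stood at 0.53 and 3.36, 7.10-fold higher, and its second probe gave a difference of 2.71. Ifit3, an antiviral protein, stood at -2.48 and 0.30, Ifi27l2a at -2.54 and 0.31, and Oas1a, a sensor of double-stranded RNA, at -1.60 and 1.16. The Oas genes are close paralogs. Ifi44 was above background at E14.5 only and at least 1.68-fold higher. Stat2 and Irf9, chosen after their values were seen, differed by 0.50 and 0.80. Summed over the list the signal was 10.2 times the 75th percentile at E11.5, 24.0 at E13.5, 65.9 at E14.5 and 90.7 at E17.5, so the E17.5 array lay higher still, unlike for hepatocyte transcripts.

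Genes that prepare and present peptides on MHC class I molecules were higher as well. Of 12 above background on both arrays, 8 were at least 2-fold higher and none was at least 2-fold lower (median 1.73). Psmb8 and Psmb9, immunoproteasome subunits, went from -5.42 to -1.46 and from -5.24 to -1.95. Tap2, a peptide transporter into the endoplasmic reticulum, went from -2.26 to -0.16. H2-K1 and H2-T23, class I heavy chains with close paralogs, went from 0.66 to 2.70 and from -0.30 to 1.78. Irf1, a transcription factor for this pathway, went from 3.07 to 4.77, with a second probe at a difference of 2.66. The MHC class II gene H2-Ab1, chosen after its values were seen, differed by -0.75. Over all members compared, the medians of the interferon and class I lists were 2.02 and 1.65. With normexp they were 0.89 and 0.95, and with the spike-ins 1.01 and 0.72.

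Promoters of 4 of these genes are shown as examples of those that hold the core of the interferon-stimulated response element: GAAA, any 2 bases, GAAA. It was searched on both strands with overlapping matches kept, and the capitals mark each match in either orientation. Each window holds the 250 bases before the RefSeq start in GRCm38.p6, written along the gene: Isg15 (chr4:156200819-156201068, minus strand), Ifit3 (chr19:34583279-34583528, plus), Oas1a (chr5:120907526-120907775, minus) and H2-T23 (chr17:36032702-36032951, minus).
Isg15: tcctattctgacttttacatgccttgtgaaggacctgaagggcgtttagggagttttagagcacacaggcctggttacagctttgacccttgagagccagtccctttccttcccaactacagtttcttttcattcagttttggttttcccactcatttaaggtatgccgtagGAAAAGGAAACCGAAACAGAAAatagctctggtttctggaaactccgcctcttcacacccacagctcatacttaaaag
Ifit3: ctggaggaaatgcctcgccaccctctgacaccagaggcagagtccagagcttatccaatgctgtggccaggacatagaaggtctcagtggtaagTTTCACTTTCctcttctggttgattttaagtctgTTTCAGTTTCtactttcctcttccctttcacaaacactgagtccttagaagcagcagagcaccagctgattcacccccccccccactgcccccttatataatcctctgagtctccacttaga
Oas1a: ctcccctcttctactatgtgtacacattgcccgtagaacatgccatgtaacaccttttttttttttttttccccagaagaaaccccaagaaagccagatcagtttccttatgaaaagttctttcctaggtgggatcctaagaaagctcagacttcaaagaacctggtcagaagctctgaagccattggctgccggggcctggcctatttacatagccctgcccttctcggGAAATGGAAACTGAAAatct
H2-T23: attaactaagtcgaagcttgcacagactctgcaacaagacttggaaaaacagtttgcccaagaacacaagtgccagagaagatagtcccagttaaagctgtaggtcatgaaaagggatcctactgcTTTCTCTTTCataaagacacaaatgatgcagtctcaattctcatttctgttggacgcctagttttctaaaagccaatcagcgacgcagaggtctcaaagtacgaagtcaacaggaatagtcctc
Isg15 had 3 overlapping matches, the nearest starting 66 bases before the start, Oas1a had 2 overlapping ones at 20 and 14 bases, Ifit3 had 2 separate ones at 156 and 122 bases, and H2-T23 had 1 at 124 bases. The letters occurred in 10 of 18 windows of interferon response genes (55.6%; 15 of the genes were found in the RefSeq table), in 2 of 11 windows of the antigen presentation list, in 0 of 30 windows of hepatocyte secreted proteins and in 978 of 32851 windows of all genes (2.98%).

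Contractile genes of smooth muscle and pericytes were mostly higher. Of 18 above background on both arrays, 8 were at least 2-fold higher and 1 at least 2-fold lower, with a median of 0.81 (-0.21 scaled to the spike-ins). The lower gene was Synpo2, chosen after its values were seen, at a difference of -1.39, but its second probe differed by 1.41. Acta2, smooth muscle actin and a marker of activated stellate cells, stood at 3.85 and 5.30, 2.74-fold higher. Tagln, an actin-binding protein, went from 3.89 to 5.66, Cnn1, calponin, from -1.53 to 0.20, and Myh11, smooth muscle myosin, from -3.43 to -1.31. All of them were higher again on the E17.5 and P1 arrays. The E11.5 levels, however, were not the lowest. Cnn1 stood at 0.96 at E11.5, above its E14.5 level, and Tagln at 5.22, between its E13.5 and E14.5 levels. Acta2 and Myh11 lay slightly above their E13.5 levels at E11.5. Over the 5 p75NTR arrays, 9 of 19 listed genes were lowest at E13.5 and 8 were lowest at E11.5.

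Matrix genes went in both directions, more often higher. Differences were positive for 21 of 32 interstitial and 14 of 17 basement membrane genes compared. Scaled to the spike-ins, the basement membrane median was -0.54. Of 31 interstitial matrix genes above background on both arrays, 7 were at least 2-fold higher and 2 lower (median 0.40, and -0.59 for all compared when scaled to the spike-ins). Fbln5, an elastic fibre protein, went from 2.08 to 4.05, though a dimmer probe gave a difference of 0.70. Thbs2, a thrombospondin, Ltbp2, a microfibril protein, and Tnxb, a tenascin, were higher by 1.74, 1.46 and 1.45. Vcan, the large proteoglycan versican, went from 1.63 to 0.01, with its least affected probe at -0.74, and Fbln2, of the fibulin family, from 3.86 to 2.54.

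In the basement membrane list, 4 of 17 were at least 2-fold higher and 3 lower, with collagen IV chains in both directions. Col4a1 and Col4a2, which lie head to head and form the common network, went from 2.18 to 3.99 and from 1.35 to 2.91. Col4a5 and Col4a6, another head-to-head pair, went from 0.15 to -0.98 and from 0.36 to -1.24; Col4a5 was chosen after its values were seen, and a second Col4a6 probe differed by only -0.33. Col4a4 went from -2.57 to -1.27, with a second probe at a difference of 0.20, and its head-to-head partner Col4a3 was below background on both arrays. Lama2, a laminin chain of muscle-type basement membranes, went from -0.54 to 0.78.

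Transcription factors of hepatic mesenchyme were more often lower than higher. Of 22 above background on both arrays, 7 were at least 2-fold lower and 2 higher (median -0.43). Isl1, Prrx1 and Meox1, homeobox factors of embryonic mesenchyme, went from -2.09 to -3.78, from -3.39 to -5.05 and from -1.23 to -2.81. Heyl, a target of Notch signalling, went the other way, from -0.30 to 1.52, along with Irf1.

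Hox genes, which encode position along the body axis, were lower in most cases. Of 39 on the array, 17 were not above background on either side, and of 18 above background on both, 7 were at least 2-fold lower and none higher (median -0.87, and -0.36 with normexp over all compared). Hoxc5 went from -1.58 to -4.27, Hoxa7 from -1.88 to -4.35 and Hoxc4 from 1.69 to -0.26. Hoxb8 was above background at E13.5 only and at least 4.48-fold lower. Hoxb9 and Hoxc12 were above background at E14.5 only and at least 3.21-fold and 2.39-fold higher, a direction that the filter on the brighter array fixes for genes seen on 1 array, as it does for Hoxb8.

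**Figure D4:**
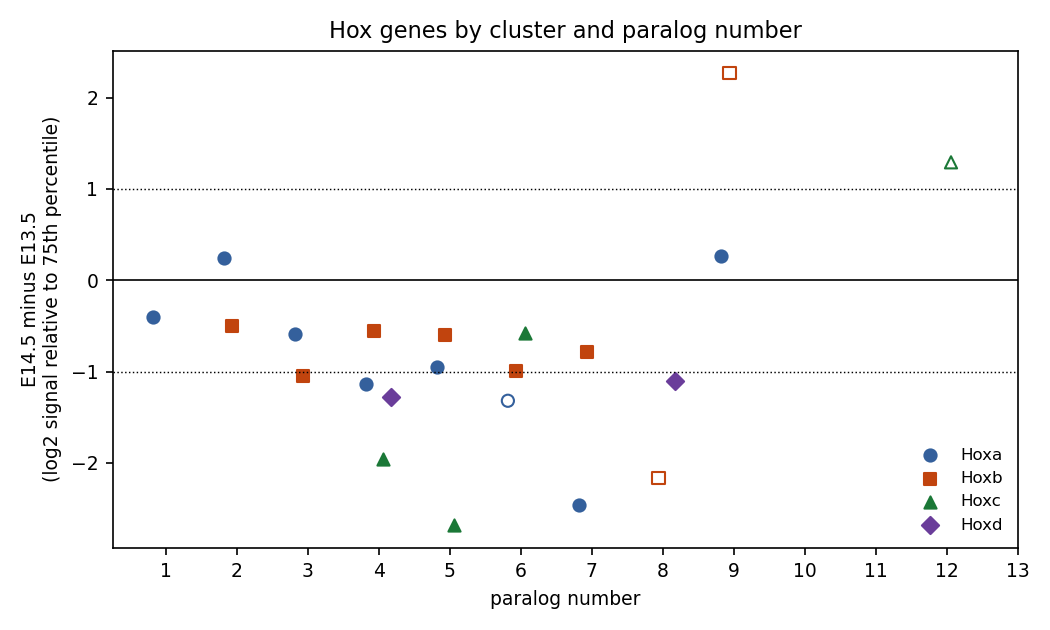
Difference E14.5 minus E13.5 (y axis, log2 signal relative to the 75th percentile) of the 22 Hox genes compared, by paralog number (x axis) and cluster; open symbols were above background on 1 array only and dotted lines mark 2-fold. Hoxc5 at -2.68 and Hoxa7 at -2.46 lie lowest, and of the genes above background on both arrays only Hoxa2 (0.24) and Hoxa9 (0.26) lie above 0, which against the spike-ins would be below it.

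Secreted signals included several lower growth factors. In the growth factor and IGF list, 7 of 25 genes above background on both arrays were at least 2-fold lower and 2 higher. Fgf9 and Fgf10, ligands by which mesothelium and mesenchyme signal to neighbouring tissue, went from -2.07 to -4.91 and from -2.01 to -4.30. Pdgfc, a PDGF ligand, went from 0.91 to -1.19, and Igfbp5, an IGF-binding protein, from 2.38 to 0.34. Fgf3 was above background at E13.5 alone of the 5 p75NTR arrays and at least 8.79-fold lower.

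Among TGF-beta and BMP genes, 5 of 28 were at least 2-fold higher and 3 lower. Gdf15, a stress-responsive ligand, went from 0.44 to 2.08 and Bmp5 from -0.39 to 1.09. The BMP antagonist Grem1 went from -3.05 to -4.43, while Fst, which blocks activins, went from -2.30 to -0.99. In the Wnt list, 3 of 22 were at least 2-fold lower and 1 higher. Rspo1, which amplifies Wnt signals, and Sfrp2, which binds Wnt ligands, went from 0.78 to -1.0 and from 1.43 to -0.32, and the ligand Wnt2 from -4.09 to -2.47.

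Blood and vessel genes moved separately. Of 9 megakaryocyte genes above background on both arrays, 5 were at least 2-fold lower and none higher (median -1.01); Treml1, a platelet receptor, went from 0.19 to -2.14 and Ppbp, a platelet chemokine, from -0.12 to -1.33. Of 18 erythroid genes above background on both arrays, 2 were at least 2-fold lower and none higher: Gata1 (0.25 to -1.14) and Tal1 (-1.05 to -2.21), the blood-forming transcription factors. Of 15 granulocyte and mast cell genes, 7 were below background on both arrays, among them Mpo, Ctsg and Cpa3. Of 6 above background on both, 3 were at least 2-fold higher and none lower. S100a8 and S100a9, the calprotectin subunits, went from -4.20 to -1.38 and from -1.88 to 0.80, and Camp, an antimicrobial peptide, from -3.52 to -2.22. Elane, Prtn3 and Gata2 differed by 0.47, -0.13 and -0.61, and Ltf and Ngp, above background at E14.5 only, were at least 3.50-fold and 1.94-fold higher. Of 19 macrophage and leukocyte genes named, 10 were below background on both arrays, among them Ptprc, Spi1 and C1qa. Of 7 above background on both, 1 was at least 2-fold higher and none lower: Marco, a scavenger receptor, went from -5.75 to -3.53, while Fcer1g, an Fc receptor chain, differed by -0.61.

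The globins did not move as a block. The 5 adult globins differed by 0.23 to 0.73, which would be negative against the spike-ins. Their signal was high on both arrays although Ter119-positive cells were gated out. Hba-a2 stood at 6.24 and 6.70, Hbb-bt at 4.59 and 4.82 and Hba-a1 at 4.12 and 4.45. Hbb-b2 and Hbb-bs were dimmer, at 0.54 and 1.27 and at -0.13 and 0.47. Hbb-y, of the embryonic yolk sac type, stood at 1.12 at E11.5, -4.23 at E13.5, 0.80 at E14.5 and -5.13 at E17.5, so the E14.5 array lay far above both of its neighbours in age. Hba-x, the embryonic alpha-type globin, was at least 3.99-fold higher, whereas Hbb-bh1, another embryonic beta-type globin, stood at -2.25 and -2.85. Globin probes may share signal between paralogs.

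Of 17 endothelial genes above background on both arrays, 8 were at least 2-fold higher and 2 lower, with a median of 0.84 (-0.32 over all compared when scaled to the spike-ins). Clec4g and Stab1, receptors of liver sinusoidal endothelium, went from -0.32 to 2.32 and from -3.39 to -1.03. Lyve1 and Flt1 were higher by 1.40 each. Stab1, Lyve1 and Flt1 stood above their E14.5 levels at E11.5, at 0.11, -1.19 and 0.41, whereas Clec4g stood at -1.28 there. Over the 5 p75NTR arrays, 14 of 23 listed genes were highest at E11.5 and 11 were lowest at E13.5. Pecam1 and Cdh5, markers of all endothelium that were chosen after their values were seen, differed by 0.18 and -0.70.

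Immediate early genes, which are switched on within minutes of a stimulus and also during tissue dissociation, were at least 2-fold higher in 9 of 21 cases and at least 2-fold lower in none (median 0.99, and -0.02 over all compared when scaled to the spike-ins). Zfp36, Btg2, Junb and Nr4a1 went from -2.10 to -0.28, from 0.76 to 2.56, from -1.57 to -0.07 and from 4.01 to 5.48. Nr4a3 was at least 4.53-fold higher. Heat shock genes, also responsive to handling, had 1 of 12 at least 2-fold higher, Cryab (2.11 to 3.34). Whether handling differed between the samples was not tested.

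Cell cycle genes were nearly level: none of 30 differed by 2-fold in either direction, and the median was 0.05, against -0.05 for all genes. Cdk1, the mitotic kinase, stood at 0.42 and 1.11, and Ccnd1, cyclin D1, at 3.84 and 3.16. Against the spike-ins the list's median was -0.96, close to that of all genes. None of 16 imprinted growth genes and none of 12 reference genes differed by 2-fold. Of 11 oncofetal RNA and chromatin factors above background on both arrays, 1 was at least 2-fold higher and 1 lower. Hmga2, a chromatin protein, stood at 4.32 and 2.23, 4.28-fold lower, and at -0.93 at E17.5. Trim71, an RNA-binding ubiquitin ligase, stood at -2.08 and -0.80, 2.43-fold higher, and Nr6a1, a nuclear receptor above background at E14.5 only, was at least 3.14-fold higher.

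Arrays at E11.5 and E17.5, which this comparison did not use, gave the difference over a longer span. Of 1113 genes at least 2-fold higher at E14.5 that were measured there, 887 (79.7%) were also higher at E17.5 than at E11.5, and of 784 at least 2-fold lower, 673 (85.8%) were also lower. Over all 13852 genes the direction was shared by 9034 (65.2%), and the differences correlated across genes at r = 0.56. A shared direction does not show that a difference went on after E14.5. Hepatocyte secreted proteins had a median E17.5 minus E11.5 of 3.58, although their summed signal was 2209 at E14.5 and 200.5 at E17.5. The share of genes at least 2-fold apart over this day, 15.8%, lay near that of the neighbouring steps, 15.1% from E11.5 to E13.5 and 17.6% from E14.5 to E17.5.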

How the data were processed

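RNA of each group was hybridised to 1 one-color Cy3 mouse array. Per the file headers, Feature Extraction 11.5.1.1 gave background-subtracted, detrended spot intensity values with no normalization between arrays. The deposited log2 table of the authors follows these signals divided by the 75th percentile, uncentered: after an offset of -0.106 (E13.5) and -0.119 (E14.5), 100% and 96.7% of probes matched within 0.02; its column medians are -3.93 and -3.87.

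Here each processed signal was divided by the 75th percentile of its array and log2-transformed. Outlier and control spots were dropped, spots of a probe averaged, and 67.4% of 39429 probes named through RefSeq accessions. For several probes of a gene the brightest over all arrays was used. Of 37 such genes among those named by the rules below, 4 had probes that differed in sign (Ccnb1, Gas1, Itgam, Ywhaz). Synpo2, named outside those rules, also had such probes. Differences are E14.5 minus E13.5, called at 2-fold or 4-fold without a test. Errors are the scanner software's, with 1634 of 1641 calls on both arrays above 3 times theirs. With a median error of 0.20 and a cutoff of 1 log2 unit, that count was nearly fixed beforehand and is no support for the calls.

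Named genes were the 15 highest and 15 lowest, up to 8 a side above background on 1 array, up to 5 members of each of 38 lists by absolute difference (all of lists of up to 8 measured), and Ngfr, Lrat, Des, Reln, Acta2, Col1a1, Tcf21, Alb, Afp and Actb (not analysed here). Further list members in the text were chosen after their values were seen. A few genes chosen this way are left unreported. Symbols of predicted genes were only counted (40 higher and 23 lower of 452). Members and lists were chosen with earlier results of these data known. Alternatives were other scalings, normexp with offset 50 in limma 3.58.1 (R 4.3.3; faulty local backgrounds replaced by the array's median), probe averaging, filters, a floor and spike-in scaling. Calling was tested on simulated data. Promoters are RefSeq's.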

Additional observations from a re-analysis of the deposited data

How the results depend on the processing

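No paired analysis was possible because each group has 1 array. The 177 named genes at least 2-fold apart gave 1544 values over the alternatives, spike-in scaling included. All 1544 had the same direction and 1417 were past 2-fold. These genes were picked by their differences on the same 2 arrays. A shared direction was thus nearly fixed beforehand and is no support for the differences. With normexp, 655 and 144 genes were at least 2-fold higher and lower, and 145 and 5 at 4-fold; list medians were 2.14 for hepatocyte secreted proteins, 1.74 for hepatocyte enzymes, 1.22 for hepatoblast factors, -0.31 for mesothelial, 0.89 for interferon, 0.95 for antigen presentation and -0.36 for Hox genes. Over genes above background on both arrays, 607 were at least 2-fold lower and 351 and 66 passed 4-fold, with medians of 2.53 for enzymes and -1.15 for mesothelial genes. With no filter, 2280 were 2-fold higher, with medians of 2.39 for enzymes and -0.56 for Hox genes. With a floor, 96 were 4-fold lower and the mesothelial median was -2.13; quantile normalization gave 0.87 for stellate markers. Spike-in scaling, chosen after seeing the data, gave 527 and 8109 genes at 2-fold and 148 and 936 at 4-fold. Its medians were 0.091 for stellate markers, -0.21 for smooth muscle, -0.96 for cell cycle, 1.36 for secreted proteins, 1.76 for enzymes, 0.80 for hepatoblast factors, -0.32 for endothelial, -3.71 for mesothelial, 1.01 for interferon, 0.72 for antigen presentation and -1.88 for Hox genes. By construction it lowers every difference by 1.01, and the number of genes compared went from 14443 to 14364. The medians with spike-ins and normexp are over all members compared, not only those above background on both arrays. Over all members compared, the main scaling gave -2.69 for mesothelial, 2.77 for enzymes and 1.65 for antigen presentation. The cause of the other shifts was not tested. Signals below background give only bounds, and 1 array a side leaves the spread between animals unmeasured.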

Other observations

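Of 20 sterol and fatty acid synthesis genes, 5 were at least 2-fold higher and none was at least 2-fold lower, while 16 differences were positive and 4 negative, with a median of 0.70 that was -0.31 when scaled to the spike-ins. Sc5d, Fdps, Lss and Idi1, enzymes on the way to cholesterol, differed by 1.22, 1.17, 1.12 and 1.05, and Scd1, a fatty acid desaturase, by 1.21. Of 13 factors that support blood stem cells and were above background on both arrays, 3 were at least 2-fold higher and 1 lower. Flt3l, a cytokine for progenitors, went from -1.77 to -0.61, Scube2 from -3.67 to -2.33 and Scube1 from -2.41 to -3.45, and Il6, above background at E14.5 only, was at least 3.68-fold higher.

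Genes of neural crest and pancreas were also above background. Sox10, a neural crest factor, stood at -0.07 at E11.5, was not above background at E13.5 and was at least 4.59-fold higher at E14.5, at -3.90. Amy1, an amylase, stood at -3.28 and -0.82, and Ctrb1, a digestive protease, at -3.59 and -2.32, while Pnlip, pancreatic lipase, was above background at E13.5 only and at least 5.81-fold lower. Oprl1, the nociceptin receptor, and Pnoc, which encodes its ligand, were both lower, from 0.77 to -2.08 and from -0.47 to -3.18. Asic4, of the acid-sensing ion channel family, stood at 2.55 at E11.5, 2.72 at E13.5, 0.13 at E14.5 and -3.87 at E17.5. Car3 stood at -1.38 at E13.5, 2.97 at E14.5 and -2.24 at E17.5, so that, as for Hbb-y, the E14.5 array lay above both neighbours in age. Xist and the Y-linked gene Ddx3y were both above background on both arrays, at -0.79 and -0.55 and at -0.24 and -0.78.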
